A study of Mus musculus with 8 samples.

Results

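The 9 genes described here are outputs of the circadian clock: Dbp, Tef and Hlf, Nfil3, Rora, Bhlhe40 and Bhlhe41, Ciart and Usp2. They were chosen by name, as PAR bZip factors, a ROR receptor, DEC factors and other transcripts that the clock drives, and all 9 of 9 were among the 25078 genes of the table and passed the filter that left 14438 genes for testing. Messenger RNA came from whole livers of 8 male C57/BL6 mice, all fed a Western-style diet with much fat, fructose and cholesterol for 25 weeks. Of these, 5 were wild type, and 3 were labelled as carrying 1 copy of a whole-body knockout of Midn, the midnolin gene, whose full loss mostly killed embryos. The genotype label of the 3 reads hemizygote and their titles read Het, so they are called het-labelled here. Age, time of day at collection and feeding state of the livers are not given in the labels, and no label names the deleted part of Midn.

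The molecular clock is a loop in which the proteins of Arntl and Clock switch on Per and Cry genes through a DNA element called the E-box, and PER and CRY then shut that activity down. The same E-box activity drives output factors. The activators DBP, TEF and HLF bind the D-box element, where the related repressor NFIL3 competes with them, and RORα opposes the REV-ERB repressors at the ROR element. In liver these factors pass the daily rhythm on to genes of drug, haem, lipid and bile acid metabolism, and many of these transcripts swing with the hour.

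Library totals ran from 17508221 to 24916239 counts. Levels are given as CPM, the counts of a gene relative to its library's size after TMM scaling. The Midn transcript did not separate the genotypes, with a mean of 50.2 ± 18.8 CPM over the wild-type livers (SD, n = 5) against 50.4 ± 10.7 CPM over the het-labelled ones (SD, n = 3). Wild-type libraries differed in their share of Rpph1, a ribonuclease P RNA without a poly(A) tail. It was 0.304 to 0.331% of counts in wild-type libraries 1 and 3 (the low-Rpph1 pair), 0.673 to 1.06% in wild-type libraries 2, 4 and 5 (the high-Rpph1 set) and 0.229 to 0.399% in het-labelled ones. Genotype differences are therefore also given against either part of the wild-type libraries, a division chosen after the data were seen. Midn itself had 68.7 and 71.5 CPM in the low-Rpph1 pair and 29.3 to 41.7 CPM in the high-Rpph1 set. Hepatocyte markers such as Alb were abundant in every library, as the tissue label says. The 8 pericentral hepatocyte markers summed to 2041 to 3827 CPM in wild type and 6942 to 10845 CPM in het-labelled livers. T and NK cell markers summed to 14.4 to 22.7 and to 8.25 to 13.8 CPM. In such bulk RNA, fewer cells of a type and less RNA per cell cannot be told apart.

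In het-labelled livers Hlf stood at 1.97 times the wild-type level, Usp2 at 1.87 times and Bhlhe40 at 1.48 times. In CPM the lowest het-labelled liver exceeded the highest wild-type liver in these 3 genes, and in the authors' RPKM the Bhlhe40 groups overlapped. Dbp, Tef, Ciart and Nfil3 were also higher on average, Rora was level and Bhlhe41 somewhat lower, all with overlapping groups. No member passed in edgeR's quasi-likelihood test after Benjamini-Hochberg adjustment, where 0% of the 14438 genes were called, and the smallest adjusted p of any gene was 0.259. Before adjustment, with p below 0.05, 4 of 9 members were higher (Hlf, Usp2, Bhlhe40 and Nfil3), against 10.3% of all tested genes, and 0 were lower, against 5.43%. The count of 4 was 2 with each of wild-type library 2, wild-type library 5, het-labelled library 1 or het-labelled library 3 left out. Hlf and Usp2 were the 2 in each case, and the share of all genes was not computed for those fits. All 3 het-labelled libraries were above all wild-type ones in 3 of 9 members, against 7.54% of tested genes, and below in 0 of 9, against 2.32%. DESeq2 called 1 member, Hlf (adjusted p = 0.0185), against 1.1% of the 15070 genes it gave an adjusted p. The median log2 fold change was 0.46 over the members and 0.00 over all tested genes.

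**Figure D1:**
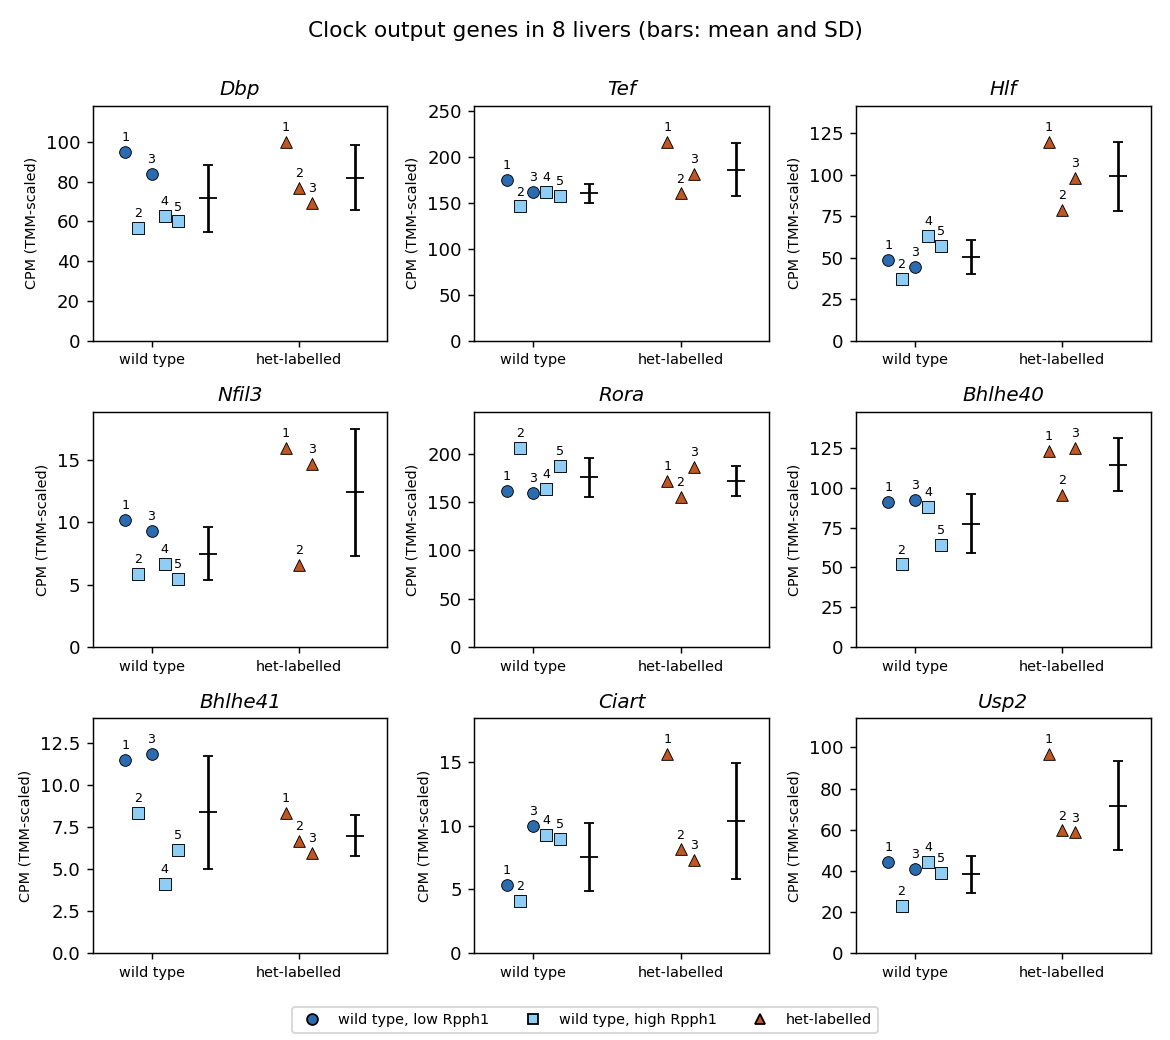
TMM-scaled CPM of each clock output gene on a linear axis from 0, with 1 point per liver labelled by its library number; circles and squares are wild-type livers with a low and a high Rpph1 share, triangles are het-labelled livers, and bars give the mean and SD of each genotype (n = 5 and n = 3). Triangles stand clear above all wild-type points in the Hlf, Bhlhe40 and Usp2 panels and overlap them in the other panels.

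Promoter letters were read because the clock acts on output genes through elements such as the E-box and the ROR element. RefSeq windows (GRCm38.p6, the assembly of mm10) from 250 bases before to 50 after a transcription start were found for 8 of the 9 members, in 9 windows, 2 of them for Tef. Both strands were searched for the E-box CACGTG, its variant CACGTT, the D-box TTANGTAA and the ROR element TAGGTCA, and no matches overlapped. The E-box CACGTG was in 4 of 9 windows (Ciart, Bhlhe41 and both Tef windows), against 7.15% of 32851 windows in the table. The ROR element was in 1 (Nfil3), against 2.61% of windows. CACGTT and the D-box were in 0 of the 9, against 4.68% and 2.32%. A match is a description of the letters and no evidence of binding, and its absence says only that these letters are not in the window. The stretches that hold the matches, all upstream of the start, are shown 5′ to 3′ on the gene's strand with the motif in capitals:

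Ciart, chr3:95882235-95882374, minus strand: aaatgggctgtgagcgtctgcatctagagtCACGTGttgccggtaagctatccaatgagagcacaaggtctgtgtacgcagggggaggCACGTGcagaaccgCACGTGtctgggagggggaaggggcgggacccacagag
Bhlhe41, chr6:145865536-145865603, minus strand: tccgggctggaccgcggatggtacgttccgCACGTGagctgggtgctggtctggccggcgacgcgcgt
Tef, window 1, chr15:81802516-81802583, plus strand: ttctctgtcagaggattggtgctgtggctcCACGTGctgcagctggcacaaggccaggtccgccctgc
Tef, window 2, chr15:81811246-81811313, plus strand: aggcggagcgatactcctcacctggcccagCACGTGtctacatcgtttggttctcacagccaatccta
Nfil3, chr13:52981040-52981081, minus strand: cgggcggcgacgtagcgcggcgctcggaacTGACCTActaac

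Ciart carried 3 E-boxes, whose first bases lie at −116, −58 and −44 from its start, more than any other member. The capitals in Nfil3 are the ROR element read on the opposite strand. The second Tef window begins inside the gene body, at an inner start. Hlf and Usp2, the members that differed most between genotypes, held none of the 4 motifs in their windows. Nor did Dbp and Rora, whose genotype groups overlapped, and Bhlhe40 was the member without a window. The Usp2 window lies at an inner start.

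**Figure D2:**
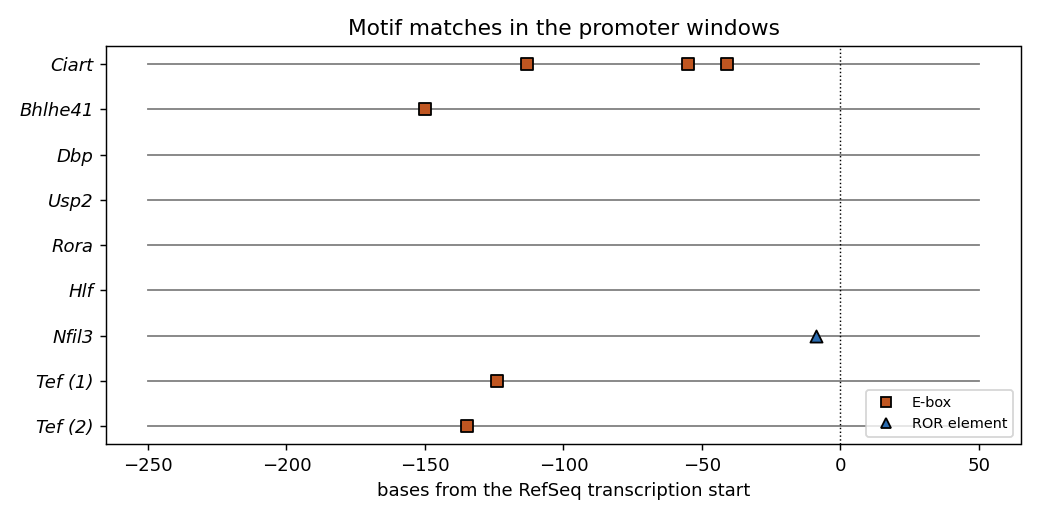
Positions of motif matches in the 9 promoter windows, in bases from the RefSeq transcription start (dotted line at 0); squares are E-boxes and triangles ROR elements, each at the middle of its match, and each grey line is 1 window. Ciart has 3 E-boxes, Bhlhe41 and each Tef window 1, and Nfil3 a ROR element close to its start.

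Per length, in the authors' RPKM (reads scaled by exon length and library size), the wild-type order was Dbp at 42.1 ± 10.9, Tef at 35.3 ± 3.07, Bhlhe40 at 24.5 ± 6.37, Rora at 13.95 ± 1.23, Hlf at 8.70 ± 1.81, Usp2 at 8.62 ± 2.13, Ciart at 5.33 ± 1.94, Nfil3 at 3.71 ± 1.14 and Bhlhe41 at 1.35 ± 0.565 (SD, n = 5). Ranges over the 5 livers did not overlap between Tef and Bhlhe40, Rora and Hlf, or Nfil3 and Bhlhe41, and they did overlap for the other neighbours in the order. In het-labelled livers Hlf at 16.8 ± 3.41 and Usp2 at 15.7 ± 4.67 stood above Rora at 13.3 ± 1.17 RPKM (SD, n = 3), with overlapping ranges, and the rest of the order was as in wild type.

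Among the D-box activators Hlf stood out. Hlf (chromosome 11, 90336535 to 90390917, minus strand, mm10) encodes hepatic leukaemia factor. It had 48.8, 37.2, 44.5, 63.2 and 57.2 CPM in wild-type libraries 1 to 5 and 120.1, 78.8 and 98.2 CPM in het-labelled libraries 1 to 3. The lowest het-labelled liver was thus above the highest wild-type one. The log2 fold change was 0.98 (SE 0.20, 95% interval 0.52 to 1.44), a 1.97-fold difference. Its edgeR adjusted p was 0.259 and its unadjusted p 0.000871. A two-sided exact permutation of the CPM values reached p = 0.0357, the smallest that 56 assignments of 3 among 8 allow. The difference was 1.02 against the low-Rpph1 pair (edgeR adjusted p = 0.0670) and 0.87 against the high-Rpph1 set (adjusted p = 0.0375).

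Dbp (chromosome 7, 45705247 to 45710203, plus strand), the D-box activator with the widest daily swing in liver, did not separate the genotypes. It had 95.03, 56.6, 83.9, 62.7 and 60.0 CPM in wild type and 100.2, 76.8 and 69.2 CPM in het-labelled livers. The highest values were in het-labelled library 1 and wild-type libraries 1 and 3, and the groups overlapped. Its log2 fold change came to 0.20 (SE 0.21, 95% interval −0.29 to 0.68, edgeR adjusted p = 0.630). Its sign turned with the libraries used, at −0.19 against the low-Rpph1 pair and 0.41 against the high-Rpph1 set (edgeR adjusted p = 0.485 and 0.0862), and it was −0.03 when libraries were scaled by their size alone, a scaling that moved the median of all genes to −0.18. The last 741 bases of Dbp overlap Sphk2 on the other strand, and the use of strand in counting is not given, so reads there could belong to either gene.

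Tef (chromosome 15, 81802673 to 81826863, plus strand) encodes thyrotroph embryonic factor, the steadiest of the 3 activators in these livers. It had 174, 146, 162, 162 and 157 CPM in wild type and 216, 159.9 and 182 CPM in het-labelled livers. Het-labelled libraries 1 and 3 were above every wild-type liver, and het-labelled library 2 lay among them. Tef differed by 0.22 on the log2 scale (SE 0.15, 95% interval −0.12 to 0.55, edgeR adjusted p = 0.471).

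Nfil3 (chromosome 13, 52967209 to 52981039, minus strand), the repressor at the D-box, split the het-labelled livers. It had 10.2, 5.87, 9.30, 6.64 and 5.48 CPM in wild type, and 16.0, 6.57 and 14.7 CPM in het-labelled libraries 1, 2 and 3. Libraries 1 and 3 were above all wild-type values, whereas library 2 was at the level of the high-Rpph1 set. Nfil3 differed by 0.73 on the log2 scale (SE 0.32, 95% interval 0.00 to 1.45, edgeR adjusted p = 0.317), with 0.28 against the low-Rpph1 pair and 1.00 against the high-Rpph1 set. Without het-labelled library 2 it was 1.04 and without het-labelled library 1 it was 0.51. Bile duct markers parted the same livers. Their summed level was 146 and 158 CPM in het-labelled libraries 1 and 3, 738 CPM in library 2 and 405 to 875 CPM in wild type. Most of that sum was Spp1, at 130, 690 and 141 CPM in het-labelled libraries 1 to 3. Stellate cell sums parted them too, with 951 and 782 CPM in libraries 1 and 3 and 1328 CPM in library 2. T and NK cell sums were lowest in libraries 1 and 3, endothelial sums were highest there, and macrophage sums lay within the wild-type range. Single macrophage markers went different ways. In het-labelled libraries 1 to 3, Trem2 had 6.31, 26.1 and 7.96 CPM and Adgre1 46.7, 79.9 and 51.2 CPM. Timd4 had 6.50, 1.88 and 7.20 CPM in them, and Cd5l 203, 299 and 323 CPM. The part of these cell types in the Nfil3 values was not tested.

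**Figure D3:**
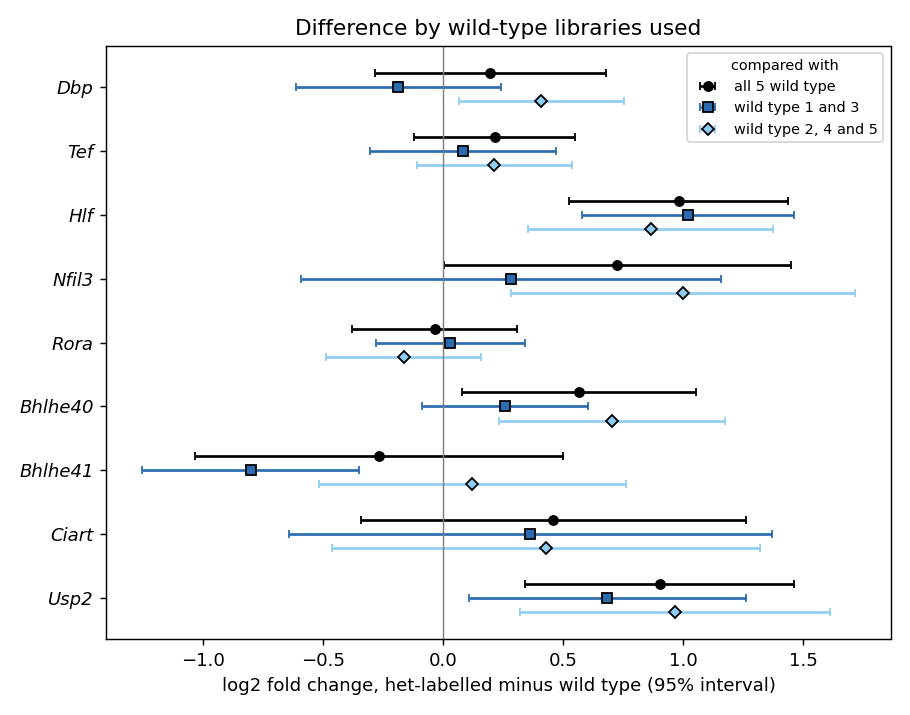
Log2 fold change of each member, het-labelled minus wild type, with its 95% interval from edgeR, against all 5 wild-type livers (circles), the low-Rpph1 pair (squares) and the high-Rpph1 set (diamonds). Hlf and Usp2 intervals lie above 0 in all 3 comparisons, which share the 3 het-labelled livers, while Dbp, Rora and Bhlhe41 change sign with the wild-type livers used.

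The balance of activator to repressor was read as a log2 ratio of RPKM within each library, which no scaling of libraries can alter. Dbp/Nfil3 was 3.47, 3.52, 3.42, 3.49 and 3.70 in wild-type livers and 2.90, 3.80 and 2.48 in het-labelled ones. Wild-type livers were thus within a narrow band (mean 3.52 ± 0.11, SD, n = 5), with 2 het-labelled livers below and 1 above it. The difference of means was −0.46 for Dbp/Nfil3, −0.46 for Tef/Nfil3 and 0.32 for Hlf/Nfil3, with two-sided exact permutation p of 0.214, 0.214 and 0.393 (0.321, 0.321 and 0.393 adjusted over the 3 ratios). None of the 3 passed, and each difference was smaller than the SD over het-labelled livers (0.67, 0.53 and 0.45, n = 3), though the first 2 exceeded the wild-type SD (0.11 and 0.34, n = 5). The Hlf/Dbp ratio, added after the values were seen and given as a description, was −2.72, −2.36, −2.67, −1.75 and −1.82 in wild type and −1.50, −1.72 and −1.25 in het-labelled livers. Every het-labelled liver was higher there, liver 2 by a small margin over wild-type library 4.

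**Figure D4:**
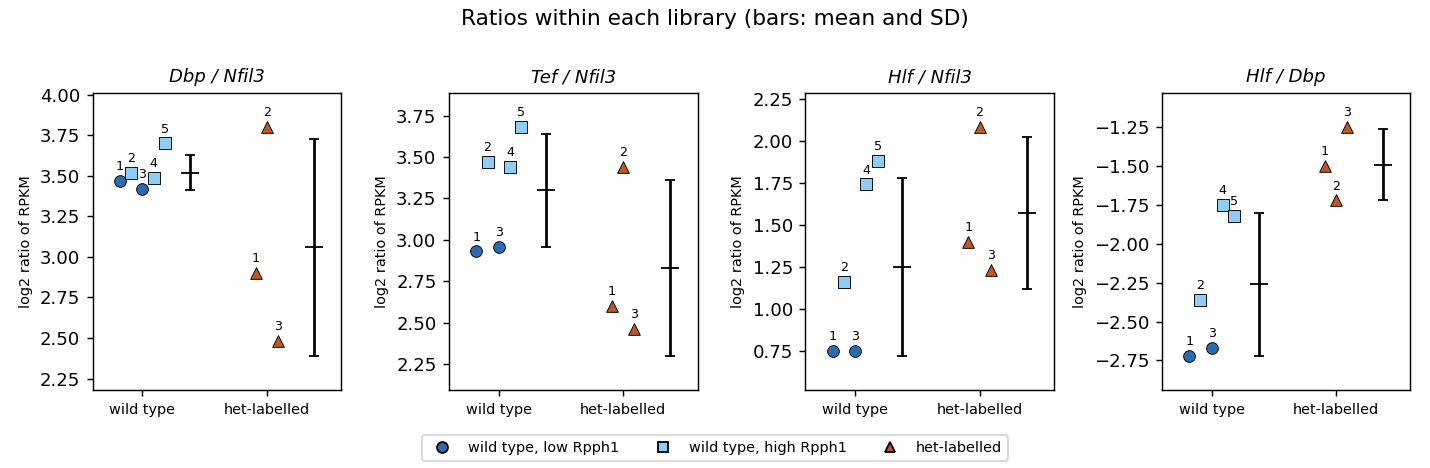
Log2 ratios of the authors' RPKM within each library for Dbp, Tef and Hlf over Nfil3 and for Hlf over Dbp, on axes that differ between panels and do not start at 0, with 1 point per liver and the mean and SD of each genotype. Het-labelled livers 1 and 3 lie below the wild-type band in Dbp/Nfil3 and het-labelled liver 2 above it, and in Hlf/Dbp all 3 lie above the wild-type points.

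Rora (chromosome 9, 68653786 to 69388246, plus strand), which encodes the receptor RORα, had the smallest ratio of highest to lowest level over the 8 livers among the members (1.33). It had 161, 206, 159.8, 164 and 187 CPM in wild type and 172, 155 and 187 CPM in het-labelled livers, with complete overlap. Rora differed by −0.04 on the log2 scale (SE 0.15; adjusted p = 0.908 in edgeR), and its 95% interval of −0.38 to 0.31 leaves out a difference as large as that of Hlf. The sign for Rora turned with the libraries used, at 0.03 against the low-Rpph1 pair and −0.16 against the high-Rpph1 set. Its body holds 9530091C08Rik on the same strand, which had 11.2 to 35.7 CPM and can share reads with it.

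The DEC factors are bHLH repressors that bind E-boxes and damp the loop. Bhlhe40, also called Dec1 (chromosome 6, 108660629 to 108666925, plus strand), had 90.9, 51.9, 92.3, 88.3 and 64.0 CPM in wild type and 123, 95.4 and 125 CPM in het-labelled livers. Het-labelled library 2 was only just above wild-type libraries 1 and 3, and the other two were well above. On the log2 scale Bhlhe40 differed by 0.56 (SE 0.22, 95% interval 0.08 to 1.05, edgeR adjusted p = 0.279; exact permutation p = 0.0357). It was 0.26 against the low-Rpph1 pair (edgeR adjusted p = 0.255) and 0.70 against the high-Rpph1 set (adjusted p = 0.0476). On the authors' RPKM its groups overlapped, with 29.6 in het-labelled library 2 below 30.2 in wild-type library 3, and gave an exact permutation p of 0.0714.

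Bhlhe41, or Dec2 (chromosome 6, 145858243 to 145865420, minus strand), was low throughout, with 75 to 317 counts per library. It had 11.5, 8.35, 11.8, 4.12 and 6.14 CPM in wild type and 8.34, 6.67 and 5.96 CPM in het-labelled livers. All het-labelled values lay between the extremes of wild type. On the log2 scale Bhlhe41 differed by −0.27 (SE 0.34, 95% interval −1.03 to 0.50, edgeR adjusted p = 0.680), with −0.80 against the low-Rpph1 pair and 0.12 against the high-Rpph1 set (edgeR adjusted p = 0.0744 and 0.781).

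Ciart (chromosome 3, 95878505 to 95882228, minus strand) encodes a repressor of the CLOCK-BMAL1 complex, also known as CHRONO. It had 5.37, 4.07, 9.97, 9.28 and 8.97 CPM in wild type and 15.6, 8.13 and 7.34 CPM in het-labelled livers. Only het-labelled library 1 was above the wild-type range. The log2 fold change of 0.46 (SE 0.36, 95% interval −0.34 to 1.26, edgeR adjusted p = 0.512) was 0.04 without that library. The antisense gene C920021L13Rik spans Ciart and had 0.161 to 1.02 CPM. As the use of strand in counting is not given, reads where the 2 overlap could belong to either gene.

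Usp2 (chromosome 9, 44067021 to 44095627, plus strand) encodes a rhythmic deubiquitinating enzyme. It had 44.3, 23.0, 41.1, 44.4 and 39.1 CPM in wild type and 96.7, 59.7 and 58.7 CPM in het-labelled livers. Het-labelled libraries 2 and 3 were nearly equal, library 1 was far above them, and wild-type library 2 was far below the other wild-type livers. The log2 fold change was 0.90 (SE 0.25, 95% interval 0.34 to 1.46), a 1.87-fold difference, with an edgeR adjusted p of 0.259, an unadjusted p of 0.00539 and an exact permutation p of 0.0357. DESeq2 gave an adjusted p of 0.0964. Leaving out het-labelled library 1 made the difference 0.63 and leaving out wild-type library 2 made it 0.72. It was 0.68 against the low-Rpph1 pair (edgeR adjusted p = 0.119) and 0.97 against the high-Rpph1 set (adjusted p = 0.0485). When libraries were scaled by size alone, Hlf was the only member whose groups did not overlap. The share of all genes under that scaling was not computed.

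Against the low-Rpph1 pair edgeR called 0 of 9 members, with 0.143% of genes called, and against the high-Rpph1 set it called Hlf, Bhlhe40 and Usp2, with 18.9% of genes called. Within wild type, 5 of 9 members (Dbp, Tef, Nfil3, Bhlhe40 and Bhlhe41) had both low-Rpph1 libraries above the high-Rpph1 set, against 31.8% of genes, and Rora had both below, against 31.1%. Dbp was 83.9 to 95.03 CPM in the pair and 56.6 to 62.7 CPM in the set, and Nfil3 9.30 to 10.2 and 5.48 to 6.64 CPM. Hlf, Usp2 and Ciart overlapped between those parts of the wild-type livers. The summed level of the pericentral markers was, like Hlf and Usp2, higher in every het-labelled liver than in any wild-type one. So were 5 of the 8 markers singly, against 7.54% of all tested genes. The part of pericentral cells in the Hlf and Usp2 values was not tested.

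Correlations between members were read over the 8 livers. The same counts over pairs of all tested genes were not computed, so they do not show that members moved together more than other genes. Of the 36 pairs, 24 had a Pearson correlation of log2 CPM above 0 over the 8 livers, and 3 passed an exact permutation test adjusted over the pairs, while 1 passed with Spearman's rho. Hlf and Usp2 had r = 0.921 (exact permutation p adjusted to 0.0138) and rho = 0.905 (0.0821), with r = 0.857 without het-labelled libraries 1 and 3, the farthest from the median of Hlf. Tef and Nfil3 had r = 0.887 (exact permutation p adjusted to 0.0134) and rho = 0.976 (0.0143), with r = 0.762 without the same 2 libraries. Bhlhe40 and Usp2 had r = 0.887 (exact permutation p adjusted to 0.0226) and rho = 0.833 (0.144), with r = 0.791 without wild-type libraries 2 and 5. Dbp and Hlf, which share family and DNA element, had r = 0.378 (exact permutation p adjusted to 0.479) and rho = 0.405 (0.490), with r = 0.254 without wild-type library 1 and het-labelled library 1. These values mix the genotype difference with variation inside each genotype, and neither a genotype nor a part of the libraries by Rpph1 share holds the 6 livers needed for a value of its own.

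Among 10735 other genes with a mean of at least 5 CPM, those most like Dbp over the 8 libraries by Pearson r of log2 CPM were Mettl17 (0.978), Abca7 (0.974) and Sbf2 (0.972), and those most like Nfil3 were Acox3 (0.992), Gpat4 (0.991) and Brap (0.991). These are descriptions over 8 points that share the genotypes and the Rpph1 division. Per2 was the gene most like Usp2 (0.989) among all those candidates, and was picked out after its value was seen.

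Of the 13 core clock genes reported, 2 were higher and 0 lower with an unadjusted p below 0.05, against 10.3% and 5.43% of all tested genes, and the median log2 fold change of the 13 was 0.19. These 2 did not pass in edgeR (adjusted p = 0.259 each) and had every het-labelled liver above every wild-type one, as 7.54% of all tested genes had. Cry1, a repressor of the loop, averaged 7.19 ± 1.48 CPM over wild-type livers (SD, n = 5) against 13.4 ± 2.84 CPM over het-labelled ones (SD, n = 3). Per2, its partner, had 45.9 ± 7.84 and 70.9 ± 13.0 CPM. Cry2 differed by 0.63 and Per1 by 0.47 on the log2 scale, and neither passed (edgeR adjusted p = 0.321 and 0.420). Nr1d1, which encodes REV-ERBα, had 69.2, 16.2, 61.9, 26.7 and 18.5 CPM in wild type and 47.1, 44.4 and 30.8 CPM in het-labelled livers. It was high in the low-Rpph1 pair and low in the set, as Dbp was. Arntl, which encodes BMAL1, had 2.62 to 2.91 CPM in wild type and 3.09, 2.48 and 6.29 CPM in het-labelled livers 1, 2 and 3, so liver 3 was more than 2 times any other.

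A list of 8 metabolic genes was taken from general knowledge as direct or indirect D-box targets. Of these, 3 were higher and 2 lower with an unadjusted p below 0.05, where all tested genes gave 10.3% and 5.43%, around a median of 0.30. Nr1i3, the xenobiotic receptor CAR, averaged 72.3 ± 35.2 CPM over wild-type livers (SD, n = 5) against 194 ± 51.2 CPM over het-labelled ones (SD, n = 3). Alas1, the rate-limiting enzyme of haem synthesis, had 409 ± 88.2 and 657 ± 92.5 CPM, and Acot1, an acyl-CoA thioesterase, 7.82 ± 1.84 and 17.3 ± 6.31 CPM. Cyp2a4, a steroid hydroxylase with a near-identical copy in Cyp2a5, had 18.0 ± 6.38 and 2.46 ± 2.76 CPM. Cyp2a5 itself had 652 ± 127 and 721 ± 141 CPM (log2 fold change 0.15, edgeR adjusted p = 0.738). How reads that match both genes were counted is not given. Cyp2b10, a target of CAR, named after its value was seen, was the other lower gene (log2 fold change −2.21). For none of the 5 higher or lower genes did the adjusted p in edgeR pass (0.259 to 0.279). DESeq2, which called 1.1% of the genes it gave an adjusted p, called Acot1 and Cyp2a4 (adjusted p = 0.0362 and 0.00121).

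Of 10 other rhythmic liver genes, 3 were higher and 1 was lower with an unadjusted p below 0.05, beside 10.3% and 5.43% over all tested genes, around a median of 0.34. Elovl3, a fatty acid elongase, averaged 10.7 ± 6.60 CPM over wild-type livers (SD, n = 5) against 55.8 ± 24.7 CPM over het-labelled ones (SD, n = 3). Lpin1, a phosphatidate phosphatase, had 79.8 ± 22.5 and 131.8 ± 24.4 CPM, the mitotic kinase gene Wee1 25.9 ± 3.68 and 33.0 ± 3.56 CPM, and Noct, the nocturnin gene, 88.7 ± 32.1 and 41.5 ± 18.8 CPM. Their edgeR adjusted p ran from 0.259 to 0.311, and DESeq2 called Elovl3 (adjusted p = 0.00307). Glucocorticoid-responsive genes, which respond to adrenal hormone as Per1 does, had 0 higher and 0 lower of 8 and a median of 0.26; the one with the smallest p, Tsc22d3, differed by 0.77 (SE 0.37, edgeR adjusted p = 0.341).

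**Figure D5:**
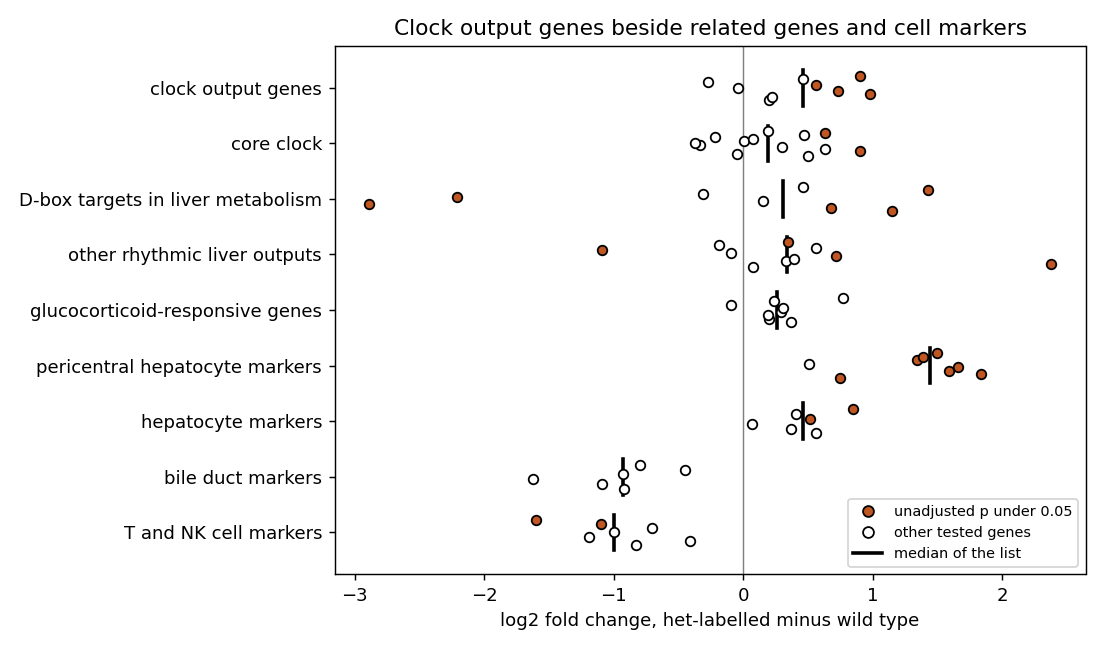
Log2 fold change, het-labelled minus wild type, of the 9 clock output genes and of tested genes in 8 other lists, with 1 point per gene, filled where the unadjusted edgeR p was under 0.05, and a bar at each list's median. The members' median of 0.46 equals that of hepatocyte markers to within 0.01 and lies below the pericentral median of 1.44, while bile duct and T and NK cell markers have medians of −0.92 and −1.0.

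Marker lists moved beside these genes. Pericentral markers had 7 of 8 higher and 0 lower with an unadjusted p below 0.05 (median 1.44; 10.3% and 5.43% of all tested genes), hepatocyte markers 2 and 0 of 6 (0.47), bile duct markers 0 and 0 of 6 (−0.92) and T and NK cell markers 0 and 2 of 7 tested (−1.0). Macrophage markers had 0 and 0 of 8 (−0.48), stellate cell markers 1 and 0 of 7 (−0.28) and endothelial markers 1 and 0 of 6 (0.28). None of the markers in the table was at 0 in all libraries, and what part these cell types had in the clock output values was not tested.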

How the data were processed

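The submitters' processing notes name mm10, STAR, HTSeq and bcl2fastq 2.18.0.12. STAR and HTSeq versions, annotation, counting mode and strand use: not given in the sources used here. The authors deposited raw counts per gene and RPKM for 25078 genes, and how the library total behind RPKM was set is not given. Unused sample columns numbered 0.

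Genotype came from the labels and replicates were numbered in accession order, which pairs nothing; no label describes litters, batches or separate preparations, and p-values cover only the spread among the 8 libraries, which may be partly technical. Replicate counts differed beyond sampling noise (chi-square per degree of freedom at least 22.9). Genes passed edgeR's filterByExpr (minimum count 10, minimum total 15), were scaled by TMM and tested with the robust quasi-likelihood test, two-sided, at an adjusted p of 0.05 over 14438 genes. DESeq2 tested 15070. Permutation p-values are exact and two-sided. Log2 CPM used a prior count of 2. Alternatives were each library left out, limma on log2 RPKM (0.1 or 1 added), limma-voom, DESeq2, RLE or size-only scaling, a 1 CPM filter or none, and non-robust estimation. Added after seeing the data were fits with either part of the wild-type libraries and without Rn45s and Rpph1. The fit was tested on simulated data with known changes. These were drawn without the division of wild-type libraries by Rpph1 share, so they do not show how the fit behaves with it.

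The members and lists were chosen with earlier results of these data known. Named genes are the members, Midn, Rpph1, Arntl, Per2, Nr1d1, up to 4 of each list with the smallest p and 3 genes most like Dbp and Nfil3. Software was Python 3.11.15, SciPy 1.17.1 and matplotlib 3.10.9, with DESeq2 1.42.0, limma 3.58.1 and edgeR 4.0.16 in R 4.3.3. Of the marker symbols, Trac was not matched. One gene of the core clock list is not reported here and was left out of that list's count and median.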

Additional observations from a re-analysis of the deposited data

Results flagged for a closer look

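Of 23 genes screened for a wild-type liver far from the other 4, 3 had one. For a single gene chance alone gives about 1 in 20. Usp2 and Per2 were flagged in the same library and had r = 0.989 over the 8 livers, so the 3 are not independent. An excess over chance was not tested. Usp2 had 23.0 CPM in wild-type library 2 against 39.1 to 44.4 CPM in the others, a gap of 0.752 of the whole range. Per2 had 32.3 CPM in the same library against 47.8 to 52.4 CPM, a gap of 0.769. Wee1 had 32.5 CPM in wild-type library 1 against 23.6 to 24.9 CPM, a gap of 0.848.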

How the results depend on the processing

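Over 20 alternatives the unadjusted p of Hlf stayed at or below 0.00610 and that of Usp2 at or below 0.0360, with log2 fold changes of 0.79 to 1.13 and 0.63 to 1.03; Bhlhe40 was under 0.05 in 14 and Nfil3 in 8. Adjusted p ran from 0.0185 to 0.819 for Hlf. With size-only scaling Dbp was −0.03, 2 members were higher before adjustment and 1 lay above all wild-type livers. On the authors' RPKM 2 members lay above them. DESeq2 called 166 genes and 1 member. Against the low-Rpph1 pair, 21 genes and 0 members were called, Dbp was −0.19, Rora 0.03, 2 members were higher and 1 lower (Bhlhe41) at an unadjusted p under 0.05, and 1 lay below both wild-type livers. Against the high-Rpph1 set, 2632 genes and 3 members were called, Bhlhe41 was 0.12 and Hlf/Nfil3 −0.02. With each library left out, 2 to 4 members were higher, 3 to 5 lay above all wild-type livers (5 without het-labelled library 2), Rora ran from −0.11 to 0.04 (0.04 without het-labelled library 2), and 0 genes were called. The cause of these shifts was not tested. Shares of all genes that were higher, lower or not overlapping were not computed for these settings. The member counts given for them therefore have no background to be read against. At 45 to 132 counts for Arntl and 75 to 317 for Bhlhe41, counting error limits the lowest genes.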

Other observations

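Two-sided exact permutation on CPM reached its floor of 0.0357 for Hlf, Usp2, Bhlhe40 and Per2, and not for Dbp (0.429), Tef (0.143), Nfil3 (0.143), Ciart (0.357), Rora (0.821) or Bhlhe41 (0.5). That floor is reached only where the groups do not overlap, so it adds nothing to the count of non-overlapping members. Of all tested genes, 7.54% had every het-labelled liver above every wild-type one, and 2.32% had every one below. Het-labelled library 1 held the highest value of Dbp, Tef, Hlf, Nfil3, Ciart and Usp2 among the 8 livers, and het-labelled library 3 the highest of Bhlhe40. Spread over the 8 livers, as the highest over the lowest CPM, was 4.20 for Usp2, 3.83 for Ciart, 3.23 for Hlf, 2.92 for Nfil3, 2.87 for Bhlhe41, 2.41 for Bhlhe40, 1.77 for Dbp, 1.48 for Tef and 1.33 for Rora. Among wild-type livers alone the coefficient of variation of CPM was 39.9% for Bhlhe41 and 6.40% for Tef, the ends of the range over the 9 genes.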
